A study of Mus musculus with 6 samples.

Results

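The genes described here were Slc12a2, Slc12a5 and Slc12a7, cation-chloride cotransporters that move chloride across the cell membrane together with sodium or potassium. They were chosen by gene name: every probe that was not a control and that the array design named for a member was taken. They are 3 of 37008 gene names on the array and were read by 5 of 56605 probes, with 1 probe for Slc12a2, 1 for Slc12a5 and 3 for Slc12a7. Testing used the 40552 probes that the scanner software marked as well above background on 3 or more of the 6 arrays, and 4 member probes were among them.

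The study exposed cultures of mouse cortical cells to terahertz radiation, an electromagnetic band between infrared light and microwaves, and measured RNA on Agilent 1-colour arrays. Its title names synaptic transmission and the differentiation of oligodendrocytes as the outcomes of interest. The irradiated group was 3 cultures that received 3 h of radiation at 3.1 THz once a day on days 5 to 9 in vitro, and the control group was 3 cultures labelled as control cultures. Both groups came from cortices of C57/B6 mouse embryos at day 16, were grown in Neurobasal medium with B27 plus and were collected on day 12. The labels call them neuron cultures and do not say whether the cultures of a group came from separate dissections. A p-value here therefore sets the group difference only against the scatter of these samples, and that scatter may be technical.

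NKCC1, the product of Slc12a2, carries chloride into cells with sodium and potassium. KCC2, the product of Slc12a5, is the potassium-chloride cotransporter of neurons and carries chloride out, and KCC4, the product of Slc12a7, is a related outward cotransporter found in many epithelial tissues. In immature neurons NKCC1 keeps internal chloride high, so that GABA can depolarise the cell. As cortical neurons mature, KCC2 becomes abundant, internal chloride falls and GABA becomes inhibitory.

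Promoter sequence was examined because Usf1 and Usf2, factors that bind the E-box CACGTG, are known regulators of Slc12a5 and were measured here. RefSeq promoter windows on GRCm38.p6 matched 2 of the 3 genes, with 2 start sites each for Slc12a5 and Slc12a7. The E-box, which reads the same on both strands, was found in the 250 bases before the downstream start of each gene. It lay 36 bases before the start at position 164967988 of chromosome 2 in Slc12a5 and 38 bases before the start at position 73763697 of chromosome 13 in Slc12a7. In Slc12a7 it spans the upstream start at position 73763660, and in Slc12a5 the window before the upstream start held none. Of 32851 windows of that length in the table, 6.02% held it. The Egr motif GCGNGGGCG, searched on both strands because Egr4 regulates Slc12a5, was in none of the members' windows and in 4.70% of all windows. The first line below is on the plus strand at chr2:164967828-164967967 and the second on the plus strand at chr13:73763535-73763674, both on GRCm38.p6, with the E-box in capitals. A match says only that these letters are present.

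Slc12a5 promoter: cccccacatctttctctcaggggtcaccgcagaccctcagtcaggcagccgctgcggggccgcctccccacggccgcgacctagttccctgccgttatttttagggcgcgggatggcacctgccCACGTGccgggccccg
Slc12a7 promoter: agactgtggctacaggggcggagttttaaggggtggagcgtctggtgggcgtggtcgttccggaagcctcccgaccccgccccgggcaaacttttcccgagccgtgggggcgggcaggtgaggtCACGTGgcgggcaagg

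Values below are log2 signals minus that of the 75th percentile of all probes on the same array, so that 0 is the level of that percentile. No probe's level is set against that of another probe, since probes differ in brightness for reasons other than RNA amount. The 75th percentile of signal was 635 to 892 on the irradiated arrays and 320 to 708 on the control arrays. Between 63.3% and 73.5% of probes were well above background on an array, and no kept member spot was saturated. Control array 1 was the dimmest and stood apart on the first principal component of all kept probes, at -148 against 11.5 to 62.0 on the other 5 arrays. The members are therefore given with and without it. All marker genes listed for neurons, astrocytes, oligodendrocyte precursors and microglia were well above background on all 6 arrays, so markers of cells other than neurons were present in every culture.

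None of the 4 tested member probes passed the test for a difference between irradiated and control cultures. The same was true of all probes on the arrays: limma with Benjamini-Hochberg adjustment called 0 of 40552 (0%), the smallest adjusted p was 0.520, and 3657 (9.02%) had an unadjusted p under 0.05. The groups overlapped for each of the 5 member probes, while they did not overlap for 15.5% of kept probes. The median difference over all kept probes, irradiated minus control, was -0.05.

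Slc12a5, the neuronal chloride exporter, was bright on every array. Its probe A_52_P557129, at position 5900 of transcript NM_020333 and at chr2:164825109-164825168 on mm9, read 5.75, 5.78 and 5.94 in the irradiated cultures and 5.99, 5.81 and 6.06 in the control cultures. The 6 values lay within 0.31 log2 units, and the highest irradiated value stood above the lowest control value. The means were 5.82 ± 0.10 in irradiated cultures and 5.95 ± 0.13 in control cultures (SD, n = 3 each). The difference was -0.13, a ratio of 0.915, with a standard error of 0.20 and a limma adjusted p of 0.831. The 95% interval ran from -0.59 to 0.33 on the log2 scale, or 0.666 to 1.26 as a ratio. An exact two-sided permutation test over the arrays gave p = 0.2, where 0.1 is the smallest that 3 against 3 can give.

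The sign of the Slc12a5 difference depended on the scaling. After quantile normalization it was 0.20, with an interval of -0.26 to 0.67 and an adjusted p of 0.766, and the authors' deposited table also gave 0.20. Without control array 1 the difference on the percentile scale was -0.11, with an interval of -0.60 to 0.38.

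Slc12a5 also varied little from array to array. Its SD over the 6 arrays was 0.12, and 3.76% of kept probes had a smaller one. The corresponding SD was 0.28 for Slc12a2, at the 32.0th percentile of kept probes, and 0.73 for the main Slc12a7 probe, at the 88.9th percentile. The second kept Slc12a7 probe, which was dim, had an SD of 0.40, at the 55.3rd percentile. On this scale the Slc12a5 probe was thus the steadiest of the kept member probes and the main Slc12a7 probe the most variable. The ranking among kept probes took no account of their brightness.

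Slc12a2, the chloride importer, was read by probe A_55_P2099448, at position 6460 of transcript NM_009194 on chromosome 18. It read 2.64, 2.04 and 2.51 in the irradiated cultures and 2.79, 2.20 and 2.55 in the control cultures. Both groups had their lowest value in the culture numbered 2 and their highest in the culture numbered 1, and the groups overlapped. Irradiated cultures averaged 2.40 ± 0.32 and control cultures 2.51 ± 0.30 (SD, n = 3 each). The difference was -0.12, a ratio of 0.92, with a 95% interval of -0.73 to 0.49 and a limma adjusted p of 0.893. The exact permutation test gave p = 0.6. The difference was 0.02 after quantile normalization and 0.02 without control array 1, and neither had an adjusted p under 0.05.

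Slc12a7, the broadly expressed chloride exporter, had its brightest probe, A_51_P421734, at position 4684 of transcript NM_011390 and at chr13:73953745-73953804 on mm9. This probe read -0.88, -1.67 and -2.33 in the irradiated cultures and -0.74, -2.27 and -2.31 in the control cultures. The cultures numbered 1 were the highest of each group, and the 6 values spanned 1.58 log2 units. Irradiated cultures averaged -1.63 ± 0.72 and control cultures -1.77 ± 0.89 (SD, n = 3 each). The difference was 0.15, a ratio of 1.11, with a 95% interval of -1.07 to 1.37, a limma adjusted p of 0.942 and an exact permutation p of 1. It was 0.66 without control array 1, with an interval of -0.27 to 1.60, and -0.22 without irradiated array 1, so single arrays set both its size and its sign.

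**Figure D1:**
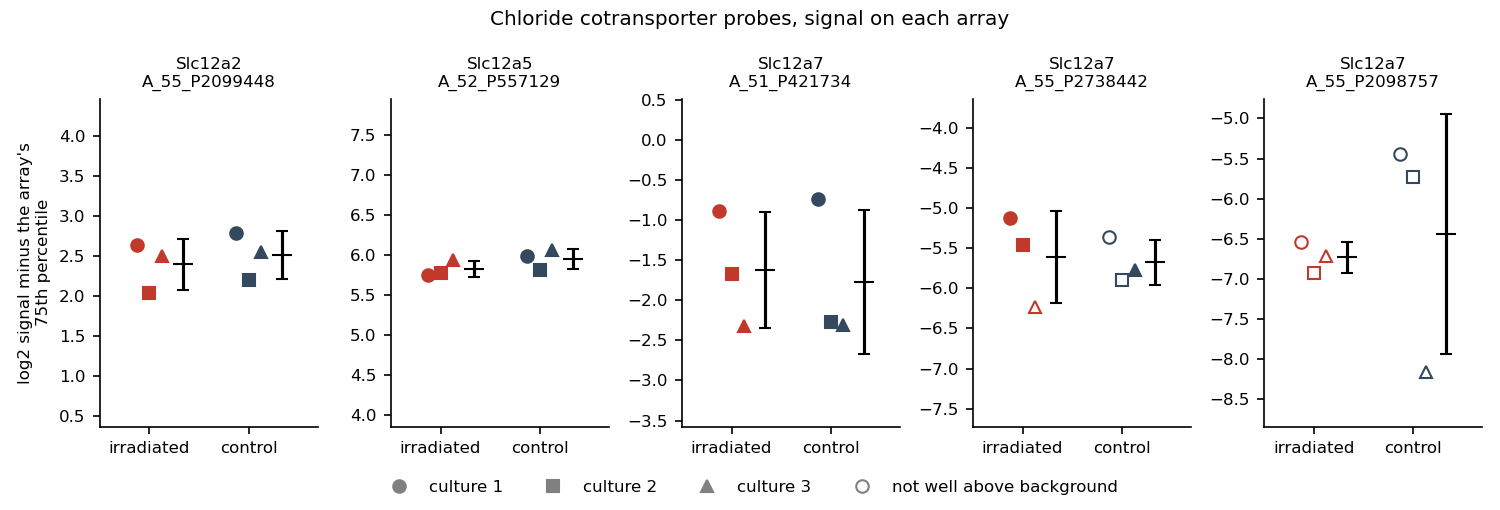
Log2 signal of each member probe minus the 75th percentile of its array, by group, in panels of equal height. Marker shape gives the culture number, filled points are well above background, open points are not, and bars are the mean ± SD of 3 cultures. The 6 Slc12a5 values lie within 0.31 log2 units, those of the main Slc12a7 probe span 1.58, and the groups overlap in every panel.

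The second Slc12a7 probe, A_55_P2738442, is printed here because it reads another stretch of the same transcript, at position 2845 and at chr13:73946469-73946528 on mm9. The array file gives no strand for it, and no letter is capitalised.

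A_55_P2738442: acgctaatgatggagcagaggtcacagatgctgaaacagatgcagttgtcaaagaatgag

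It was dim, reading -5.12, -5.46 and -6.24 in the irradiated cultures and -5.36, -5.89 and -5.77 in the control cultures. It was well above background in irradiated cultures 1 and 2 and in control culture 3 only. The group means were -5.61 ± 0.57 in irradiated cultures and -5.68 ± 0.28 in control cultures (SD, n = 3 each). They differed by 0.07, with an interval of -0.69 to 0.83 and a limma adjusted p of 0.959. Without control array 1 the difference was 0.23, and with normexp background correction it was -0.50, at an unadjusted limma p of 0.062. The third probe, A_55_P2098757, was designed on the cDNA AK052910 at chr13:73934333-73934392 on mm9 and was not well above background in any of the 6 cultures. Its readings of -6.54, -6.93 and -6.71 in irradiated cultures and -5.44, -5.72 and -8.16 in control cultures give no fold.

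**Figure D2:**
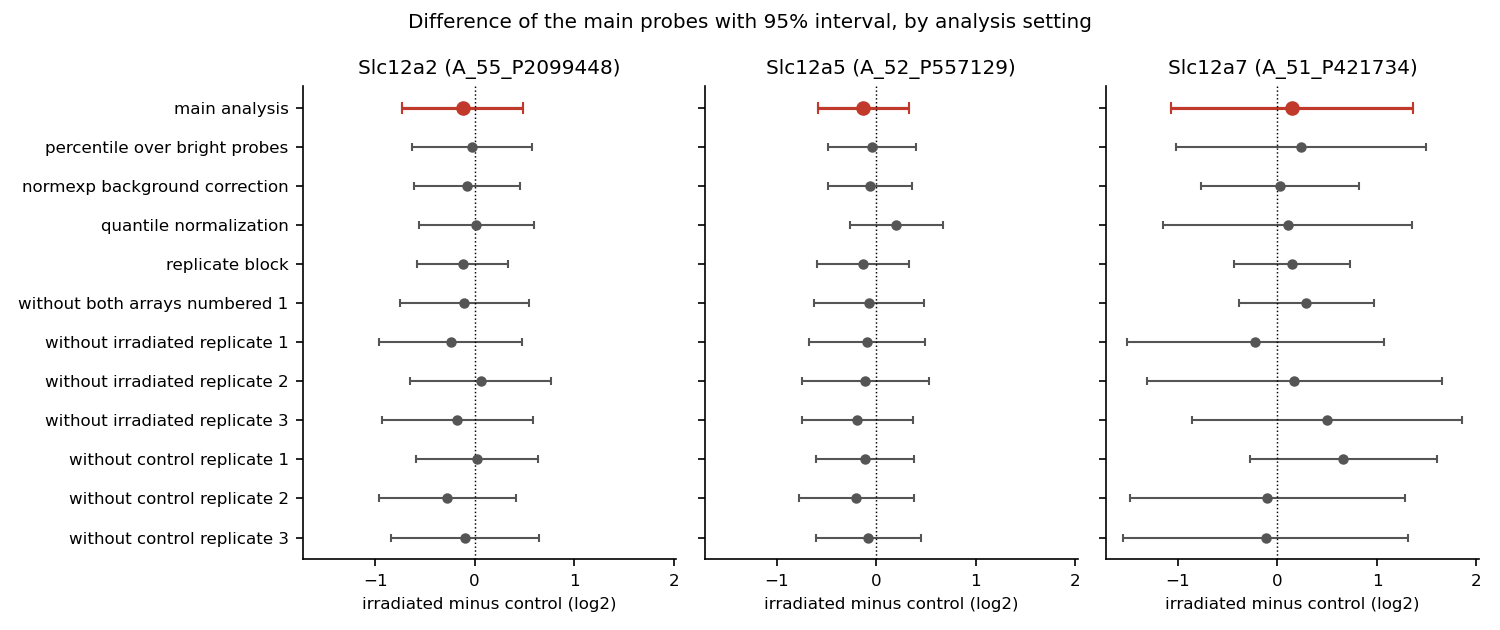
Difference in log2 signal, irradiated minus control, for the main probe of each member under the main analysis and some of the alternative settings, with 95% intervals. Red marks the main analysis and grey the alternatives, and the point estimates of each probe shown fall on both sides of 0.

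Chloride transport itself was not measured. The RNA balance of the outward and inward cotransporter was followed as the log2 ratio of Slc12a5 to Slc12a2 signal within each array. It is given relative to the mean ratio of the control cultures. This ratio was -0.33, 0.30 and -0.0019 in the irradiated cultures and -0.24, 0.18 and 0.07 in the control cultures. In both groups it was lowest in culture 1 and highest in culture 2. Its mean was -0.01 ± 0.32 in irradiated cultures and 0 ± 0.22 in control cultures (SD, n = 3 each), a difference well inside the spread of either group. Without control array 1 the difference in the ratio was -0.13, and after quantile normalization it was 0.19.

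The ratios that involve Slc12a7 spread more widely. The log2 ratio of Slc12a5 to Slc12a7, on the same footing, was -1.09, -0.27 and 0.54 in the irradiated cultures and -0.997, 0.36 and 0.64 in the control cultures. The difference between the groups was -0.28, with SDs of 0.82 in irradiated cultures and 0.87 in control cultures. For Slc12a7 to Slc12a2 it was 0.27, with SDs of 0.71 in irradiated cultures and 0.68 in control cultures. Control array 1 weighed on both: without it the difference was -0.77 for Slc12a5 to Slc12a7 and 0.64 for Slc12a7 to Slc12a2. Without control array 3 they were 0.04 and -0.02.

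Markers of some other cell types moved with the culture number too. The main Slc12a7 probe deviated from its own 6-array mean by 0.82, 0.03 and -0.63 in the irradiated cultures and by 0.96, -0.57 and -0.61 in the control cultures. The mean deviation of 7 microglia and macrophage markers was 1.88, -0.46 and -1.10 in the irradiated cultures and 1.39, -0.51 and -1.20 in the control cultures. That of 7 astrocyte markers was 0.68, -0.20 and -0.62 in the irradiated cultures and 0.78, -0.18 and -0.47 in the control cultures. All 3 series were highest in the cultures numbered 1 of both groups and lowest in those numbered 3. The same order held in both groups for endothelial cells and pericytes, from -0.50 to 0.56, and for radial glia, from -0.25 to 0.17. Immature neuron markers ran the other way in both groups, and meningeal fibroblast markers were highest in the cultures numbered 2. Oligodendrocyte precursor and choroid plexus markers had a different order in each group.

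The 5 myelinating oligodendrocyte markers were also highest in the cultures numbered 1, at 1.80 in the irradiated and 2.04 in the control culture, and were lowest in those numbered 2, at -1.55 in the irradiated and -1.53 in the control culture. Mobp, a myelin gene, took a large share of these means and was not well above background in the cultures numbered 2. Without Mobp the mean of the other 4 genes was 0.90 in irradiated culture 1 and 1.19 in control culture 1, and -1.02 in irradiated culture 2 and -0.94 in control culture 2. The part of these marker differences in the Slc12a7 values was not tested. In such mixed cultures, fewer cells of a type and less RNA per cell cannot be told apart.

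Markers of neurons, the cells in which Slc12a5 is expressed, spread less than those of microglia, astrocytes and myelinating oligodendrocytes. The 7 neuronal markers deviated on average by -0.43, -0.20 and 0.18 in the irradiated cultures and by 0.09, 0.17 and 0.18 in the control cultures. Slc12a5 deviated by -0.14, -0.11 and 0.05 in the irradiated cultures and by 0.10, -0.08 and 0.17 in the control cultures. Both were lowest in irradiated culture 1, and the part of the neuronal markers in the Slc12a5 values was not tested. Slc12a2 deviated by 0.19, -0.41 and 0.05 in the irradiated cultures and by 0.34, -0.26 and 0.10 in the control cultures.

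**Figure D3:**
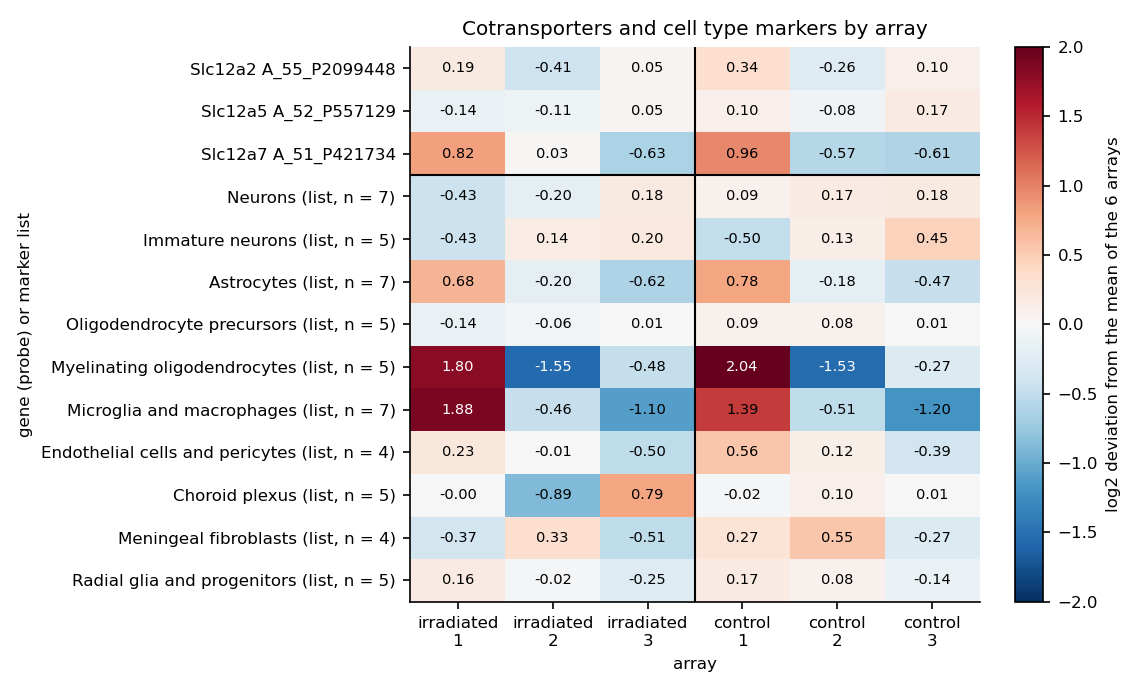
Deviation in log2 signal from the 6-array mean for the main probe of each member (upper rows) and the mean over the genes of each marker list (lower rows), one column per array. Slc12a7 reaches 0.82 in irradiated culture 1 and 0.96 in control culture 1, and the microglia and macrophage list reaches 1.88 and 1.39 in the same arrays.

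The genes with the most similar pattern were found by the root mean square (RMS) difference over the 6 arrays, after each gene's own mean was subtracted, among 16213 named genes. For Slc12a5 they were Rab5a at 0.027, Ppp6c at 0.031, Clp1 at 0.0325, Ap1g1 at 0.0326 and Celf3 at 0.0375 log2 units, where the median gene was at 0.294. For Slc12a2 they were Lrrc4c at 0.0447, Insyn2b at 0.0581, Lats2 at 0.0605, Cracdl at 0.0627 and Azi2 at 0.0629, with a median of 0.374. For Slc12a7 they were H2-Q8 at 0.0903, H2-Q7 at 0.0917, Lrmp at 0.0935, Casp12 at 0.0977 and H2-D1 at 0.101, with a median of 0.738.

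Of the genes nearest to Slc12a7, H2-Q8, H2-Q7 and H2-D1 are class I histocompatibility genes whose sequences are close enough that a probe may read more than one of them. These distances rest on 6 arrays and are descriptions. Between the members, the RMS difference was 0.221 for Slc12a2 and Slc12a5, 0.583 for Slc12a2 and Slc12a7 and 0.705 for Slc12a5 and Slc12a7.

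Genes that act with or on the cotransporters were followed in 6 lists of 65 genes, of which 63 were kept, each read by its brightest kept probe. None passed the limma test after adjustment and 0 had an unadjusted p under 0.05, against 8.83% of all 26120 genes. The difference was above 0 for 20 and below 0 for 43, where 65.8% of all genes were below 0 and the median gene was at -0.13. Groups did not overlap for 4 of the 63 (6.35%), against 15.9% of all genes. All 4 were lower in irradiated cultures, as were 12.1% of all genes.

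In the cotransporter family itself, 4 of 5 kept genes were below 0, with a median difference of -0.14. Slc12a4, which encodes the widely expressed KCC1, averaged 2.39 ± 0.24 in irradiated cultures and 2.73 ± 0.51 in control cultures (SD, n = 3 each). Its difference was -0.34, with an interval of -1.04 to 0.37 and a limma adjusted p of 0.685. Slc12a1, the renal sodium-potassium-chloride cotransporter gene, was dim and differed by -0.30, and Slc12a9 differed by -0.14.

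The kinases of the WNK pathway phosphorylate the cotransporters, which activates NKCC1 and inhibits KCC2. Of 12 kept genes in this list 6 were above 0 and 6 below, with a median of 0.03. Wnk1 averaged 2.90 ± 0.07 in irradiated cultures and 2.79 ± 0.10 in control cultures (SD, n = 3 each), and its other probes did not all go the same way, ranging from -0.20 to 2.06 in difference. Stk39, the kinase SPAK downstream of WNK, differed by -0.26 with an interval of -0.81 to 0.29, Oxsr1, the related kinase OSR1, by 0.19 with an interval of -0.39 to 0.78, and Cab39, an activator of both, by -0.23, where its 3 probes ranged from -0.23 to 0.79.

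Wnk3, a dim gene, read -4.21, -3.98 and -4.29 in the irradiated cultures and -7.24, -4.78 and -4.15 in the control cultures. In control culture 1 it was not well above background, and the groups overlapped. The fitted difference was 1.23 with a limma adjusted p of 0.545, it was 0.31 without control array 1, and a second Wnk3 probe differed by 0.05.

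Proteins that bind, traffic or cleave KCC2 gave 4 genes above 0 and 4 below, with a median of 0.01. Epb41l1, which encodes the cytoskeletal linker 4.1N, was the one of these whose groups did not overlap. It read 3.03, 3.11 and 3.28 in the irradiated cultures and 3.47, 3.46 and 3.43 in the control cultures, so all control values were above all irradiated values. The difference was -0.31, with an interval of -0.76 to 0.13 and a limma adjusted p of 0.554, and its 5 probes ranged from -0.31 to 0.15. Grik2, a kainate receptor subunit that associates with KCC2, differed by 0.40, and Pacsin1, an endocytic adaptor that binds KCC2, by -0.39.

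Factors that control Slc12a5 transcription gave 1 gene above 0 and 7 below, with a median of -0.22 that was -0.14 after quantile normalization. Usf1, an E-box factor, averaged -0.80 ± 0.21 in irradiated cultures and -0.36 ± 0.26 in control cultures (SD, n = 3 each). Its difference was -0.43, with an interval of -0.97 to 0.11 and a limma adjusted p of 0.525, and a second Usf1 probe differed by -0.04. Nrtn, the growth factor neurturin, differed by -0.60 with an interval of -1.60 to 0.39, and a second Nrtn probe by -0.03. Rest, the repressor of neuronal genes, differed by -0.23, with its 3 probes between -0.23 and 0.24. Egr4, an early growth response factor, averaged 2.31 ± 1.22 in irradiated cultures and 2.61 ± 0.93 in control cultures, and Bdnf, a neurotrophin, 1.97 ± 0.53 in irradiated cultures and 2.18 ± 0.68 in control cultures.

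Other routes for chloride and bicarbonate gave 3 genes above 0 and 7 below, with a median of -0.10 that was 0.08 after quantile normalization. Clcn6, a lysosomal chloride-proton exchanger, differed by 0.41, and its 4 probes ranged from -0.25 to 0.41. Slc4a3, a chloride-bicarbonate exchanger, differed by -0.38, and its 3 probes ranged from -0.38 to 0.35. Car7, a carbonic anhydrase of neurons, and Clcn2, a chloride channel, both differed by -0.25. The interval of each of these 4 genes included 0.

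Genes of GABA and glycine transmission, through whose receptors chloride flows, gave 5 above 0 and 15 below, with a median of -0.13 that was 0.07 after quantile normalization. Gad1, the larger GABA-synthesising enzyme, had 3 probes that ranged from -0.53 to 0.12 in difference, and its brightest averaged 4.97 ± 0.31 in irradiated cultures and 4.96 ± 0.29 in control cultures (SD, n = 3 each), with an interval of -0.60 to 0.61 for the difference. Gabra2, a GABA receptor subunit, differed by 0.16, with an interval of -0.73 to 1.06.

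In Slc32a1 and Gad2 of the same list all irradiated values lay below all control values. Slc32a1, the vesicular GABA transporter, read 6.44, 6.31 and 6.46 in irradiated cultures and 7.04, 6.53 and 6.62 in control cultures, with a limma adjusted p of 0.584 for the difference of -0.33. Gad2, the smaller GABA-synthesising enzyme, read 3.44, 3.67 and 3.65 in irradiated cultures and 3.93, 3.79 and 3.83 in control cultures. Its difference was -0.26 at a limma adjusted p of 0.620, and its 3 probes ranged from -0.26 to 1.33. Nlgn2, the neuroligin of inhibitory synapses, differed by -0.41, with an interval of -1.02 to 0.19, and its groups overlapped.

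**Figure D4:**
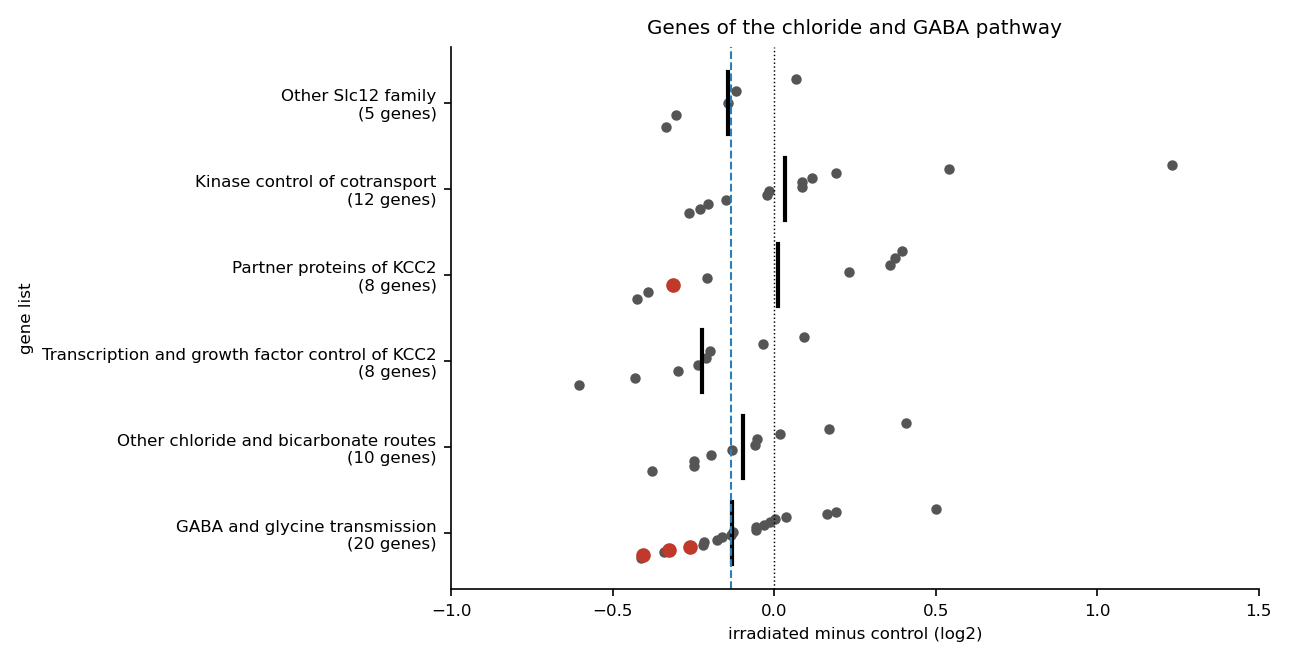
Difference in log2 signal, irradiated minus control, for the 63 kept pathway genes in 6 lists, one point per gene. Red points mark the 4 genes whose groups do not overlap, the black bar is the list's median, and the blue dashed line is the median of all genes at -0.13. The list medians run from -0.22 to 0.03.

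Marker lists of cell types gave the same count of calls. Of 54 kept marker genes, 0 were called by limma after adjustment and 0 had an unadjusted p under 0.05, against 8.83% of all genes. Differences were above 0 for 18 and below 0 for 36, where 65.8% of all genes were below 0. Groups did not overlap for 1 of the 54 (1.85%), against 15.9% of all genes. That marker was Olig2, a transcription factor of the oligodendrocyte lineage, named after its values were seen. It read 1.65, 1.81 and 1.55 in irradiated cultures and 1.30, 1.54 and 1.52 in control cultures. Its difference was 0.21, with an interval of -0.25 to 0.68 and a limma adjusted p of 0.697.

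Within the lists, 6 of 7 neuronal markers were below 0, with a median of -0.32 that was 0.05 after quantile normalization. Each was read by its brightest kept probe, and other probes of these genes did not all go the same way. The highest difference of any kept probe was 1.76 for Snap25, 1.01 for Syt1, 0.98 for Stmn2 and for Map2, and -0.06 for Nefl. Tubb3 had 1 probe, at -0.67. Rbfox3, a neuronal nuclear protein, differed by -0.30, and its 3 probes ranged from -0.30 to 0.86. Of the astrocyte markers 5 of 7 were below 0, with a median of -0.13, and the 2 probes of Gfap, an astrocyte filament gene, differed by 0.25 and -0.40. Of the microglia and macrophage markers 5 of 7 were above 0, with a median of 0.32, and Aif1 differed by 0.43, with an interval of -1.62 to 2.47.

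Pdgfra, of oligodendrocyte precursors, differed by -0.05, with its 3 probes between -0.47 and -0.05. Mbp, a component of myelin, differed by 0.01, with its 3 probes between 0.01 and 0.63. The 2 probes of Ttr, of choroid plexus, differed by -0.30 and 0.14.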

How the data were processed

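Total RNA of 6 cultures was labelled with Cy3 and hybridised to Agilent 1-colour arrays, and the 6 arrays share 1 slide and 1 scan. Per the file headers, the scanner intensity (processed signal, background-subtracted and detrended) came from Agilent Feature Extraction 10.7.1.1, the version that the submitters' processing notes also give. The authors also deposited a log2 table of the same arrays. Its columns all had a median of 5.90 and the order of the probes was that of the scanner values, so it was quantile normalized, not centred on genes and runs in the same direction. How it was made is otherwise not given in the sources used here. The fit value of the scanner software's multiplicative detrending was 0 on control array 1 and 0.0130 to 0.0383 on the other 5 arrays, per the file headers.

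From the intensities, spots marked as outliers were left out, spots of a probe were averaged, and log2 signal minus each array's 75th percentile was taken. Probes well above background on at least 3 of 6 arrays, counted without regard to group, entered the fit by lmFit and eBayes (limma 3.58.1, R 4.3.3), with Benjamini-Hochberg adjustment over all kept probes and a threshold of 0.05. The number of arrays limits the precision. Differences of named genes come from that fit, and the test was run on simulated arrays first. Of the array's probes 32994 were named through RefSeq by accession, 10224 by symbol and 520 by synonym, and 12867 kept the name in the file.

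The members and lists were chosen with earlier results of these data known. Named genes were all member probes, the 3 genes of each pathway list with the smallest unadjusted p, a fixed set of regulators, and the 5 genes nearest to each member. Some genes this rule names are not reported here. Exact permutation tests are two-sided. Alternatives were quantile normalization, normexp with an offset of 50, other percentiles, the deposited table, other filters, 1 value per gene, outlier spots kept, the replicate number as a block, and leaving out arrays.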

Additional observations from a re-analysis of the deposited data

How the results depend on the processing

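No member probe was called under any of the settings run, and the lowest adjusted p was 0.752 for Slc12a2, 0.672 for Slc12a5, 0.730 for the main Slc12a7 probe and 0.299 for the second one. The count of called probes was 0 of 40552 and became 4 with quantile normalization and 4 with the authors' deposited table; no other setting called any, although unadjusted counts ran from 1238 without irradiated replicate 1 to 6870 with normexp. With quantile normalization the neuronal marker median was 0.05, against -0.32 on the percentile scale. Signs turned in these cases, where the cause was not tested. Slc12a2 was 0.018 with quantile normalization, 0.019 with the deposited table and 0.018 with the replicate block and quantile normalization, and Slc12a5 was 0.20 under each of those 3. The second Slc12a7 probe was -0.50 with normexp and -0.017 without both arrays numbered 1. Leaving out 1 array at a time gave -0.28 to 0.059 for Slc12a2, -0.20 to -0.08 for Slc12a5, -0.22 to 0.66 for the main Slc12a7 probe, -0.17 to 0.38 for the second, and -0.17 to 0.15 for the ratio of Slc12a5 to Slc12a2. Checks chosen after seeing the data gave, in the same way, -0.77 to 0.13 for Slc12a5 to Slc12a7, -0.02 to 0.67 for Slc12a7 to Slc12a2, 0.31 to 1.85 for Wnk3, -0.11 to 0.97 for Sgk1 and -0.056 to 0.95 for Glra2, and 0 listed genes called under any setting (0 to 4 at an unadjusted p under 0.05). The median over all probes was -0.05 on the percentile scale, -0.20 with normexp and 0.03 with the percentile over bright probes. The percentile over all spots that are not controls was also chosen after seeing the data and turned no member's sign.

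Same-numbered arrays deviated together with correlations over probes of 0.46, 0.33 and 0.09, and with 1 probe per gene of 0.53, 0.42 and 0.22. The numbers were taken as names because the correlation of the arrays numbered 3 over probes, the unit tested, was under 0.1, which with 1 probe per gene it was not, and not every array correlated best with its own number. With the replicate block 0 probes were called, 3480 had an unadjusted p under 0.05, and the adjusted p was 0.752 for Slc12a2, 0.735 for Slc12a5 and 0.762 for the main Slc12a7 probe, whose interval was then -0.44 to 0.73. Limits are 3 cultures a group, a dim second Slc12a7 probe, and intervals that leave room for changes in either direction.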

Other observations

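Sgk1, a kinase that acts on the WNK pathway, read 3.46, 3.74 and 3.89 in irradiated cultures and 3.58, 1.86 and 4.02 in control cultures. Its difference was 0.54 and was -0.11 without control array 2, and a second Sgk1 probe differed by -0.28. Glra2, a glycine receptor subunit of immature neurons, read -1.31, -0.63 and -0.69 in irradiated cultures and -2.50, -1.15 and -0.49 in control cultures. Its difference was 0.50 and was -0.056 without control array 1. Choroid plexus markers deviated on average by -0.00, -0.89 and 0.79 in irradiated cultures and by -0.02, 0.10 and 0.01 in control cultures.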
